A study of Mus musculus with 6 samples.

Results

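The genes described here are the interleukin-6 (IL-6) receptor, its signal transducer and its transcription factor, together with genes of the acute phase response, in mouse liver. The 10 symbols were Il6ra, Il6st, Stat3, Socs3, Saa1, Saa2, Hp, Orm1, Orm2 and Lcn2, out of 22180 genes with at least 1 probe set annotated to a single symbol. The list was chosen by its biology with measured values of these arrays already known, so the differences of its members between groups are given as a description, with standard errors and no p-value for a single member. A gene with several probe sets was read from its brightest, judged by the average of all 6 arrays, and 9 of the 10 symbols had at least 1. Saa1 had no probe set of its own. The probe set shared by Saa1 and Saa2 is described beside Saa2.

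Livers of male C57BL offspring were compared at 32 weeks of age after fasting. In the CD-CD group (3 arrays) the dams had the control diet through pregnancy and lactation, and the pups stayed on it after weaning. In the CR-CD group (3 arrays) the dams had a chromium-restricted diet over the same period, and the pups had the control diet from weaning. Both groups therefore ate the same diet as adults, and the comparison addresses the effect of maternal chromium restriction that persists in the grown offspring. The labels do not say whether the arrays of a group came from separate litters, or whether animals were pooled, so errors and p-values measure only the spread between these arrays. The arrays read RNA of whole liver, in which fewer cells of a type and less RNA per cell cannot be told apart. Their number limits the precision.

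IL-6 is a cytokine released by macrophages and other cells during infection and injury. On the hepatocyte it binds its receptor Il6ra, which pairs with the shared transducer gp130, encoded by Il6st, and the attached Janus kinases activate the transcription factor STAT3. STAT3 works with C/EBP factors and, downstream of IL-1 and TNF, with NF-kB to switch on the secreted acute phase proteins, while its target Socs3 blocks the receptor complex and ends the signal.

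To show regulatory sequence, the 250 bases before the start site are printed for 6 genes. Saa2, Orm2 and Lcn2 were the measured members whose levels varied most between arrays. Saa1 is printed beside Saa2, although it has no measured level of its own. Socs3 is the feedback inhibitor and Il6ra the receptor. The windows come from RefSeq (GRCm38.p6), where 8 of the 10 members had a window and Hp and Orm1 were not matched. The windows are chr7:46742981-46743230 on the minus strand for Saa1, chr7:46751583-46751832 on the plus strand for Saa2, chr4:63362199-63362448 on the plus strand for Orm2, chr2:32387740-32387989 on the minus strand for Lcn2, chr11:117969367-117969616 on the minus strand for Socs3 and chr3:89913197-89913446 on the minus strand for Il6ra. Each is written 5′ to 3′ on the strand of its gene, and capitals mark a match to one of the motifs searched.
Saa1: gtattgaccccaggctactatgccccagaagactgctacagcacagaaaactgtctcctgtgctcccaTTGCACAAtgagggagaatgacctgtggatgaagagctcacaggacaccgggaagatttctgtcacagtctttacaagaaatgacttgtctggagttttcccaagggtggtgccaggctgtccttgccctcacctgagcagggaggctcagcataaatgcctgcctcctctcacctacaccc
Saa2: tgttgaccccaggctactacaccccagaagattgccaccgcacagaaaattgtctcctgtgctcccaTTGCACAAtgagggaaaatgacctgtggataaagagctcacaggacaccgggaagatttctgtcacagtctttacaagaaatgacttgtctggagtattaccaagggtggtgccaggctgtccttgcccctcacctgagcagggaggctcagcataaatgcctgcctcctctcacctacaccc
Orm2: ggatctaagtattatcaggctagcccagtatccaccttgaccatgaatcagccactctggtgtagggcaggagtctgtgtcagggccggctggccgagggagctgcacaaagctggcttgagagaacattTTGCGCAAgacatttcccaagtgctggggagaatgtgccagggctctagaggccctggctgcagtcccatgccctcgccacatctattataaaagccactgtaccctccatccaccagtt
Lcn2: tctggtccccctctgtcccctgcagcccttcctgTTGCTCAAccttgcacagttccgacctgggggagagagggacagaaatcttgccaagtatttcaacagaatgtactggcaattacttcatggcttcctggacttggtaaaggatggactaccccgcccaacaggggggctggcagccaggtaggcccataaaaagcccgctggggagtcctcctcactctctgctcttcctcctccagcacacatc
Socs3: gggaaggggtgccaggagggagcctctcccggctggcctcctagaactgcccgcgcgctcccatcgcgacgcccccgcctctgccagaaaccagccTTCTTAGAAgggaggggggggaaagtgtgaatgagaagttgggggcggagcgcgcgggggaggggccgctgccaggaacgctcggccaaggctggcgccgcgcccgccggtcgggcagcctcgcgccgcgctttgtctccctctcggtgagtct
Il6ra: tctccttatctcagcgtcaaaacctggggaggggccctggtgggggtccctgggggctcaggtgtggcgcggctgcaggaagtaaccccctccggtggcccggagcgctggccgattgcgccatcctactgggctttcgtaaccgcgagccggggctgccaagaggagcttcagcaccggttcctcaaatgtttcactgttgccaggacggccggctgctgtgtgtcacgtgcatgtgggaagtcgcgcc

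Both strands were searched for the STAT motif TTCNNNGAA, the C/EBP core TTGCNNAA, the type II IL-6 element CTGGGAA and the NF-kB consensus. The windows of Saa1, Saa2, Orm2 and Lcn2 each held a C/EBP core, which began 182, 183, 120 and 216 bases before the start site. The window of Socs3 held the STAT motif TTCTTAGAA, which began 154 bases before the start. Those of Il6ra, Il6st and Stat3 held no match. Over 32817 mouse windows of the same length, 9.57% held the C/EBP core, 7.01% the STAT motif, 9.1% the type II element and 7.25% the NF-kB consensus. No matches overlapped another motif. The letters describe the windows and do not show that a factor binds there. The windows of Saa1 and Saa2, a pair of neighbouring copies, were 94.8% identical, with 238 identical positions, 11 mismatches and 2 gap positions.

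Signals are on the log2 scale as deposited, where 1 unit is a doubling, and ran from 3.63 to 13.91 with array medians of 5.48 to 5.54. Liver identity was clear, since all 10 hepatocyte markers were measured, with means of 9.78 to 13.74. In 324 genes, values of some arrays were written with more decimals than the rest of the table, and 315 of the 329 genes called different between groups were among them (1.48% of 22180 called, 174 higher and 155 lower in CR-CD, limma with adjusted p under 0.05). All values of the 9 measured members had the usual format. The 10 macrophage markers were all higher in CR-CD by the mean, with a median difference of 0.599 against 0.002 over all genes. Their summed linear signal was 1710 to 2700 in CD-CD and 2940 to 4340 in CR-CD, and 6 of the 10 did not overlap between groups (against 5.63% of all genes with CR-CD higher), although none had an adjusted p under 0.05 in limma (smallest 0.357, with 6 under 0.05 before adjustment). The part of these cells in the results below was not tested.

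Il6ra, which binds IL-6 itself, was the only member whose arrays separated by diet. Its log2 signal was 8.84, 8.64 and 8.94 on the CD-CD arrays (replicates 1, 2 and 3) and 8.39, 8.16 and 7.97 on the CR-CD arrays. The groups did not overlap, and the highest CR-CD array lay below the lowest CD-CD array. The means were 8.81 ± 0.16 and 8.17 ± 0.21 (SD, n = 3 per group), a difference of -0.64 (SE 0.13) or 1.55-fold lower in CR-CD. Within equal replicate numbers the difference was -0.46, -0.47 and -0.98, and without any 1 array it ran from -0.74 to -0.53.

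Il6st encodes gp130, the transducer that all cytokines of the IL-6 family share. Its signal was 10.53, 9.85 and 9.63 in CD-CD and 10, 9.81 and 9.87 in CR-CD, so the groups overlapped and CD-CD replicate 1 was the highest array. The difference of the means was -0.11 (SE 0.22). Stat3, the transcription factor activated by gp130, read 10.58, 9.6 and 9.64 in CD-CD and 9.67, 9.87 and 9.69 in CR-CD. Again CD-CD replicate 1 stood above the other 5 arrays, which lay within 9.6 to 9.87, and the difference was -0.20 (SE 0.25). Without that array the differences of Il6st and Stat3 turned to 0.16 and 0.12. The negative sign of these differences therefore rested on CD-CD replicate 1.

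Socs3, the feedback inhibitor that binds gp130 and the Janus kinases, read 7.37, 6.65 and 6.48 in CD-CD and 6.63, 6.53 and 6.33 in CR-CD. CD-CD replicate 1 was the highest, and the groups overlapped. The means were 6.83 ± 0.47 and 6.5 ± 0.15 (SD, n = 3 per group) and differed by -0.34 (SE 0.22), which shrank to -0.07 without CD-CD replicate 1. A dimmer probe set of Socs3 read 5.5, 5.28 and 5.07 in CD-CD and 5.24, 5.31 and 5.05 in CR-CD, near the array medians, with a difference of -0.09.

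The acute phase genes varied far more from array to array than by diet. Saa2 encodes serum amyloid A2, a lipoprotein-bound protein that hepatocytes secrete in inflammation. It read 13.17, 9.4 and 8.1 in CD-CD and 12.52, 9.83 and 9.98 in CR-CD. Both replicate 1 arrays were high and the other 4 low, so each group held 1 high array. The means of 10.22 ± 2.64 and 10.78 ± 1.51 (SD, n = 3 per group) differed by 0.55 (SE 1.33), less than the spread within either group. Over the 6 arrays the range was 5.07, or 33.7-fold, the widest of all 22180 genes. The probe set annotated to both Saa1 and Saa2 had the same order within CD-CD, at 13.24, 9.54 and 8.03, and read 12.18, 9.77 and 9.94 in CR-CD, a difference of 0.36. Because these copies are so alike in sequence, reads of one by the probes of the other cannot be told apart here, and no value is assigned to Saa1.

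Orm1 and Orm2 encode orosomucoids, plasma proteins that carry lipophilic molecules. Orm2 read 12.5, 8.71 and 7.99 in CD-CD and 10.89, 8.49 and 8.67 in CR-CD. The range of 4.51, or 22.8-fold, was second only to that of Saa2, and both replicate 1 arrays again stood above the other 4. The difference between groups was -0.39 (SE 1.21). Orm1 read 12.31, 10.82 and 10.61 in CD-CD and 11.58, 10.92 and 11.03 in CR-CD, with the same 2 arrays on top and a narrower range of 1.7, or 3.26-fold. Its difference was -0.07 (SE 0.44). The orosomucoid genes are close copies, and the probe sets may read more than 1 of them.

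Lcn2 encodes lipocalin-2, which binds bacterial iron carriers and is made by hepatocytes and neutrophils. It read 10.75, 7.57 and 7.09 in CD-CD and 10.09, 7.94 and 8.15 in CR-CD, again with both replicate 1 arrays above the rest. Its range was 3.66, or 12.6-fold, the 9th widest of all genes, and the groups differed by 0.25 (SE 1.01). The 10 neutrophil markers had means of 4.67 to 5.68, close to or below the array medians, and summed to 332 to 388 in CD-CD and 328 to 357 in CR-CD. Hp encodes haptoglobin, which binds free haemoglobin. It read 13.43, 12.7 and 12.69 in CD-CD and 13.1, 12.72 and 12.76 in CR-CD, with the same 2 arrays highest and a difference of -0.09 (SE 0.22).

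**Figure D1:**
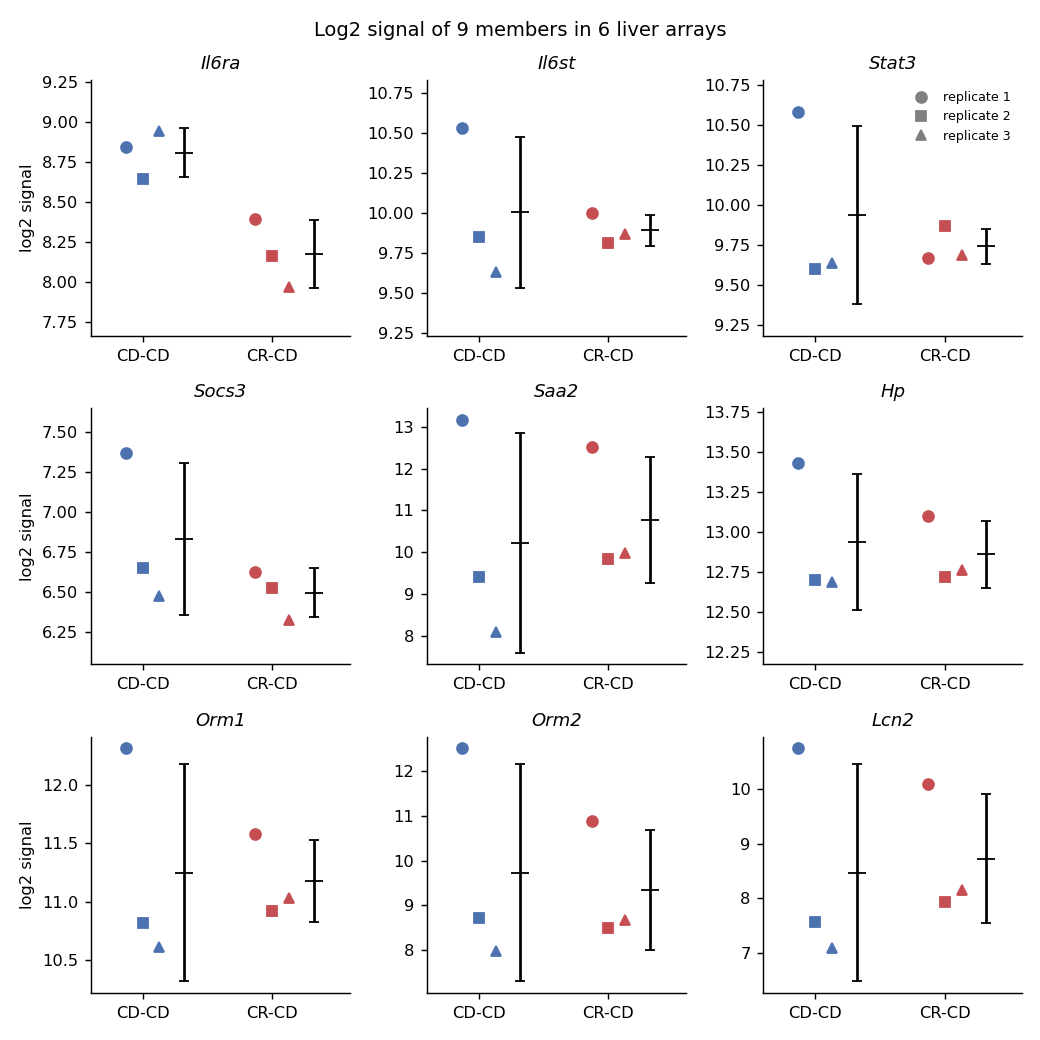
Log2 signal (y axis, a separate scale per panel) of the 9 measured members on each array, with the CD-CD group beside the CR-CD group (n = 3 each) and the group mean ± SD. Il6ra is the only panel in which the groups do not overlap, and in the panels of Saa2, Orm2 and Lcn2 each group has 1 array far above its other 2.

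Among the 9 members, CD-CD replicate 1 was the highest of the 6 arrays in 8, all but Il6ra. Both replicate 1 arrays were the 2 highest in 6 of 9, namely Il6st, Saa2, Hp, Orm1, Orm2 and Lcn2. Within CD-CD, replicate 1 exceeded the mean of replicates 2 and 3 by 21.5-fold for Saa2, 17.8-fold for Orm2, 10.7-fold for Lcn2 and 3.03-fold for Orm1. Within CR-CD the same offsets were 6.12-fold, 4.95-fold, 4.12-fold and 1.52-fold. For Stat3, Il6st and Socs3 the offset was 1.94-fold, 1.74-fold and 1.74-fold in CD-CD but 0.925-fold, 1.12-fold and 1.14-fold in CR-CD. In CR-CD replicate 1, therefore, these secreted proteins read higher than on the other arrays of the group while Stat3 did not. Leaving out 1 array turned several signs. Without CD-CD replicate 1 the differences of Saa2, Lcn2, Orm2, Orm1 and Hp were 2.03, 1.39, 1.0, 0.46 and 0.16, and without CR-CD replicate 1 they were -0.32, -0.43, -1.16, -0.27 and -0.21. Without CD-CD replicate 3, the lowest array of all 5, they were -0.51, -0.44, -1.26, -0.39 and -0.21. Without CD-CD replicate 2 the difference of Lcn2 also turned, to -0.20, and without CR-CD replicate 2 those of Orm1 and Orm2 turned, to 0.06 and 0.04. The difference between the offsets was not tested, because each rests on 1 array. The labels give no reason for the high arrays, and no batch or scan information was used here.

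To set the receptor arm against its targets array by array, each gene was expressed relative to its CD-CD mean, and the median was taken over Il6ra, Il6st and Stat3 and over the 6 measured targets. In CD-CD the receptor arm stood at 0.53, -0.17 and -0.3 and the targets at 1.67, -0.63 and -1.01. In CR-CD the receptor arm stood at -0.27, -0.19 and -0.25 and the targets at 0.74, -0.36 and -0.28. On CR-CD replicate 1, 5 of 6 targets thus lay above the CD-CD mean, while the receptor arm median lay below it. CD-CD replicate 1 raised that mean, and the receptor arm median was below it on CD-CD replicates 2 and 3 too. On CR-CD replicate 1, Il6st read 10, the same as its CD-CD mean. Stat3 read 9.67 there, against 9.6 and 9.64 on CD-CD replicates 2 and 3. Il6ra, at 8.39, was below every CD-CD array. The median difference between groups was -0.20 for the receptor arm and -0.08 for the targets. Without CD-CD replicate 1 these became 0.12 and 0.73. Without both replicate 1 arrays, a setting chosen after seeing the data, they were 0.10 and 0.25. The receptor arm medians of 0.12 and 0.10 are the differences of Stat3 and of Il6st. In the same 2 settings the difference of Il6ra was -0.62 and -0.73.

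**Figure D2:**
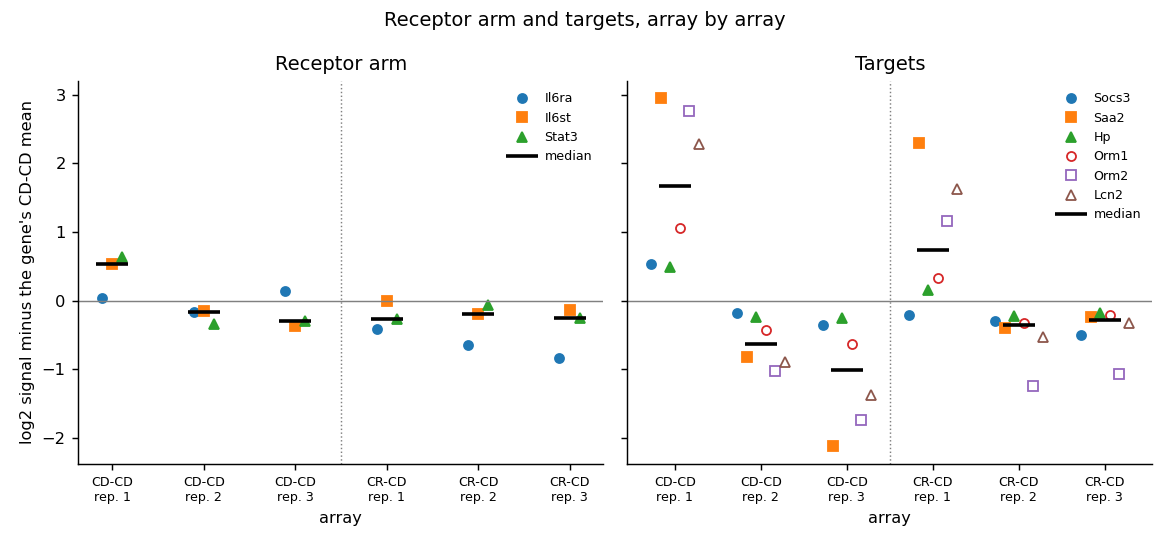
Log2 signal of each member minus its CD-CD mean (y axis) on the 6 arrays (x axis), for Il6ra, Il6st and Stat3 on the left and the 6 measured targets on the right, with black bars at the median. The target medians are 1.67 on CD-CD replicate 1 and 0.74 on CR-CD replicate 1 and below 0 on the other 4 arrays, and Il6ra is below 0 on all 3 CR-CD arrays.

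None of the 9 members had an adjusted p under 0.05 in limma, against 1.48% of all genes, and 1 was under 0.05 before adjustment. The methods' t-test also gave 0 of 9 after adjustment. The groups did not overlap in 1 of 9 members with CR-CD lower and in 0 of 9 with CR-CD higher, against 5.77% and 5.63% of all genes. As these values were known when the list was drawn up, nothing is read from the counts.

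In the wider pathway, 93 of 108 genes on 9 lists were measured, of which none was called higher in CR-CD, 2 were called lower (Agt and Hamp) and 91 were not called. The groups did not overlap in 8 of the 93 with CR-CD lower (8.6%, against 5.77% of all genes) and in 1 with CR-CD higher (1.08%, against 5.63%). The 93 include the 9 measured members, and Il6ra is 1 of the 8. As the lists were chosen with earlier results known, nothing is read from these shares. Over all genes 1.48% were called. Hamp encodes hepcidin, the liver hormone that lowers iron uptake and that IL-6 induces through STAT3. Its signal was 12.91, 13.11 and 13.07 in CD-CD and 12.49, 12.05 and 12.28 in CR-CD, without overlap. It fell by 0.76 on the log2 scale (means 13.03 ± 0.11 and 12.27 ± 0.22, SD, n = 3 per group, adjusted p = 0.0307, limma). With the replicate number as a block the adjusted p was 0.0729, and over all 15 alternatives it ran from 0.00846 to 0.884, with 7 not under 0.05. The highest, 0.884, was without the longer-format probe sets, although Hamp has no such value. Unlike Saa2 or Orm2, Hamp was not highest on CD-CD replicate 1.

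Agt encodes angiotensinogen, the precursor of the angiotensins and an acute phase protein of rodents. Its signal was 10.84, 10.95 and 10.94 in CD-CD and 9.81, 10.02 and 9.94 in CR-CD, a difference of -0.99 (adjusted p = 0.000595, limma). All 3 of its CD-CD values, and none of its CR-CD values, were written in the longer decimal format described above, and whether that format bears on the difference was not tested.

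Of the ligands of gp130, 0 of 7 measured genes were called, none was under 0.05 before adjustment in limma either, and the list had a median difference of -0.032. Il6 itself read 4.48 to 4.62 in CD-CD and 4.47 to 4.58 in CR-CD, below the median of every array and toward the low end of all values in both groups. The receptor list had 0 of 6 called and a median difference of -0.129, and Il6ra was its 1 gene without overlap. Osmr, the receptor for oncostatin M, read 7.74, 6.5 and 6.14 in CD-CD and 6.93, 6.5 and 6.51 in CR-CD. It was highest on both replicate 1 arrays, as the transducer Il6st was. The proteases and helpers that shed the receptor had 0 of 4 called and a median difference of 0.093.

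Of the signalling relay, 7 of 10 genes were measured and none was called. Gab1, an adaptor that links gp130 to MAP kinase signalling, did not overlap and read 7.92 ± 0.21 in CD-CD and 7.53 ± 0.14 in CR-CD (SD, n = 3 per group, adjusted p = 0.636, limma). Of the inhibitors, 7 of 8 were measured and none was called. Ptpn6, the phosphatase SHP-1, read 8.16 ± 0.09 and 8.36 ± 0.1 in the same order, also without overlap (adjusted p = 0.749, limma).

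Of the early STAT3 response factors, 10 of 11 were measured and none was called, with a median difference of -0.07. Junb, an AP-1 subunit, read 7.34 ± 0.16 in CD-CD and 7.02 ± 0.06 in CR-CD without overlap (SD, n = 3 per group, adjusted p = 0.529, limma). The repressor Bcl6 read 7.1, 6.42 and 6.47 in CD-CD and 8.49, 6.71 and 6.79 in CR-CD. It was highest on CR-CD replicate 1, not on CD-CD replicate 1 as the secreted targets were.

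In the IL-1, TNF and NF-kB arm, 13 of 15 genes were measured and none was called. In 3 of the 13, CR-CD was lower without overlap, against 5.77% of all genes, and nothing is read from this count. These 3 were Nfkbiz, a co-activator induced by IL-1, the TNF receptor Tnfrsf1a and the receptor kinase Irak1. Their differences were -0.38, -0.30 and -0.19 (adjusted p = 0.485, 0.819 and 0.808, limma). Without CD-CD replicate 1 the differences were -0.27, -0.12 and -0.12. Il1r1, the receptor for IL-1, read 10.49, 8.31 and 7.94 in CD-CD and 8.8, 7.97 and 7.85 in CR-CD. CD-CD replicate 1 was well above the other 5 arrays, and CR-CD replicate 1 came next.

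**Figure D3:**
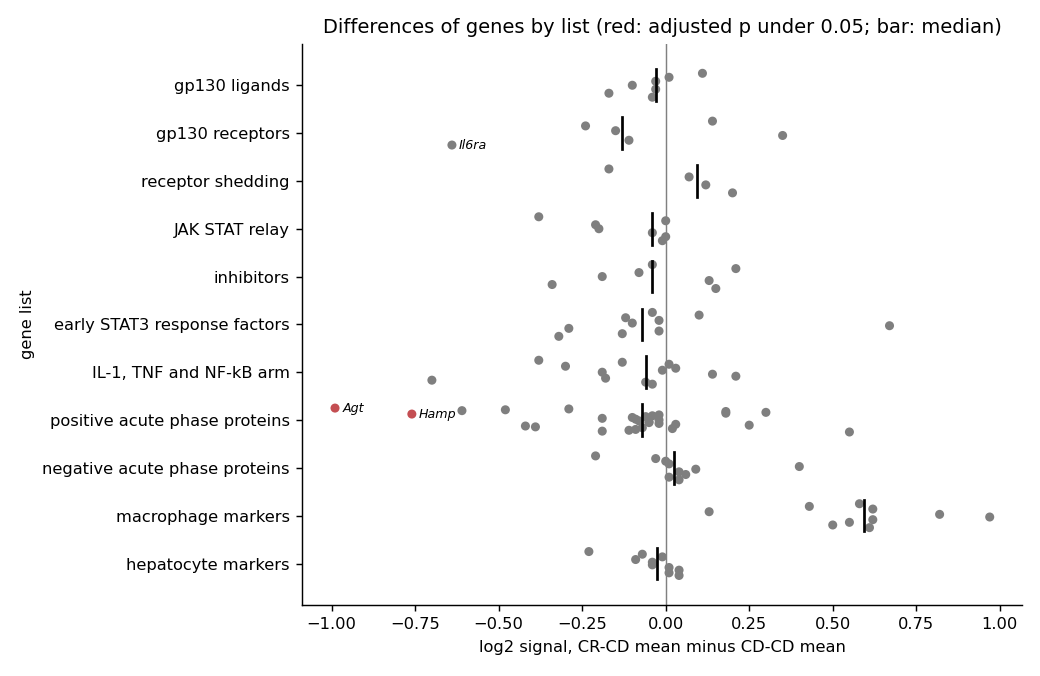
CR-CD minus CD-CD difference in log2 signal (x axis) for each measured gene of the 9 pathway lists and of the macrophage and hepatocyte marker lists (y axis), 1 point a gene, with the list median. The 9 pathway medians lie between -0.129 and 0.093, and the macrophage marker median lies at 0.599.

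The positive acute phase list holds 5 of the members, and its other genes were counted separately. Of 32 positive acute phase genes, which rise in inflammation, 29 were measured, and CD-CD replicate 1 was the highest of the 6 arrays in 24. Both replicate 1 arrays were the 2 highest in 16 of 29. Without the 5 members these counts were 19 of 24 and 11 of 24. The shares of all genes with these orders are not given here. Across all genes, the deviations of the 2 replicate 1 arrays from their group means correlated at 0.407. The counts are therefore not read as particular to this list. Over the whole list, replicate 1 exceeded the mean of the other replicates by a median of 1.13 in CD-CD and 0.19 in CR-CD, against 0.0 and -0.01 over all genes, and without the members by 0.84 and 0.07. Between groups the median difference was -0.069, with 0 called higher and 2 called lower.

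Examples named after their values were seen showed the same order. Apcs, serum amyloid P, read 11.41, 8.72 and 8.78 in CD-CD and 10.96, 8.75 and 9.12 in CR-CD. Fgl1, a secreted fibrinogen-like protein, read 12.67, 10.62 and 10.55 in CD-CD and 12.34, 11.19 and 10.86 in CR-CD. Orm3 and Saa3, further copies of the member families, read 8.44, 6.23 and 5.21 against 6.77, 5.9 and 5.96, and 8.82, 6.83 and 6.27 against 7.35, 7.06 and 6.95. In all 4 genes CD-CD replicate 1 was highest and CR-CD replicate 1 came next. This order held in 16 of the 29 genes at most, since only there were both replicate 1 arrays the 2 highest. In Crp, Saa4 and Steap4, CR-CD replicate 1 was the lowest CR-CD array, at 11.38, 11.73 and 9.4. The metallothioneins, small zinc-binding proteins that glucocorticoids and metals also induce, departed further from the order. Mt2 read 12.9, 11.21 and 11.13 in CD-CD but 10.35, 11.96 and 11.48 in CR-CD, so CR-CD replicate 1 was its lowest array, as it was for Mt1.

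**Figure D4:**
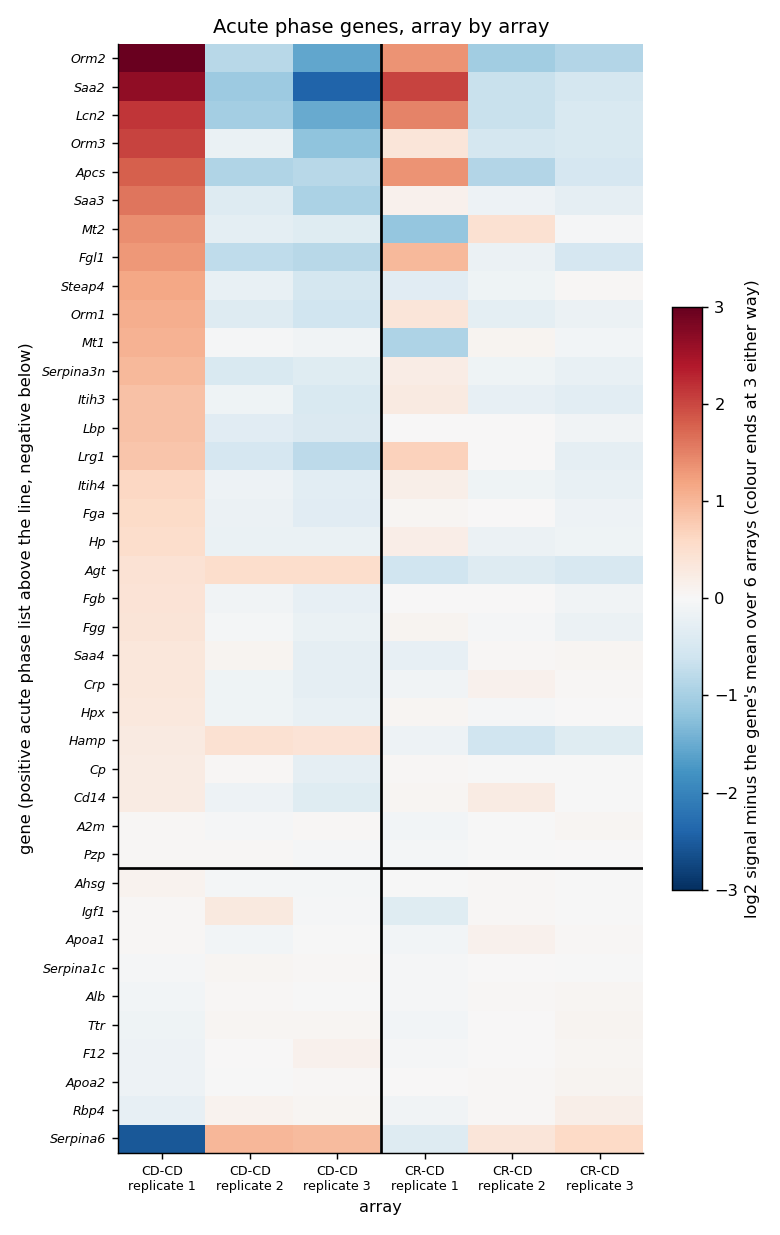
Log2 signal minus the gene's mean over all 6 arrays, for the measured positive and negative acute phase genes (y axis) on the 6 arrays (x axis), coloured from low to high. CD-CD replicate 1 is the highest array in 24 of the 29 positive genes, and both replicate 1 arrays are the 2 lowest in 6 of the 10 negative genes.

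Of 12 negative acute phase genes, which fall in inflammation, 10 were measured, none was called and the median difference was 0.025. Both replicate 1 arrays were the 2 lowest in 6 of 10. The count was also 6 of 10 in the hepatocyte marker list, which shares Alb, Ttr and Apoa1 with this list. The order was therefore not particular to negative acute phase genes, and its share over all genes is not given here. Serpina6, the corticosteroid-binding globulin, read 8.37, 11.91 and 11.85 in CD-CD and 10.53, 11.28 and 11.51 in CR-CD, with the replicate 1 arrays lowest.

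The genes whose pattern over the 6 arrays was most like that of a member were taken by Pearson's r among 1494 genes with an SD of at least 0.3. The points share arrays, and r is a description. For Saa2 they were Ifitm2 (r = 0.999), Igsf11 (0.995), Lcn2 (0.992), Hspb8 (0.988) and the scavenger receptor Cd163 (0.984), and r over the 4 arrays left after removing both replicate 1 arrays was 0.92 or more in all 5. For Socs3 they were Gm8883 (r = 0.99), Afdn (0.988), Gadd45g (0.983), Tacc2 (0.976) and Cpeb4 (0.975). Without CD-CD replicate 1 and CR-CD replicate 3, r was 0.51 to 0.97, so part of the likeness rested on these arrays. For Il6ra they were Ccdc6 (r = 0.972), Chd3 (0.966), Zmiz1 (0.966), Sh3bp2 (0.958) and the clock repressor Cry2 (0.958). Of these, only Zmiz1 was free of values in the longer format, which stood in the CD-CD arrays alone for the others.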

How the data were processed

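RNA from whole liver was hybridised to single-colour Affymetrix arrays, 3 per group. The authors normalised the arrays and deposited log2 signals per probe set. The methods name Genespring and Affymetrix Mouse Gene ST arrays. Background correction and summarisation were not given in the sources used here. The table held 33793 probe sets, no missing value and 0 unused columns. Of these, 23521 had 1 symbol in the platform annotation, 1820 had several and 8452 were unnamed. The brightest probe set with 1 symbol stood for a gene (22180 genes).

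CR-CD minus CD-CD was fitted in limma 3.58.1 (R 4.3.3), without covariates, with 4 residual and 2.98 prior degrees of freedom and Benjamini-Hochberg adjustment over all genes. The methods' t-test was run as an alternative. The limma fit was tested on simulated arrays with planted differences and noise drawn independently for each array, without any link between replicate numbers. With 3 against 3 arrays no exact permutation test goes below p = 0.1. Members and lists were chosen with earlier results of these data known. Named were all members, list genes past adjusted p 0.05, up to 3 non-overlapping genes per list, and the 5 genes most like Saa1, Socs3 and Il6ra. Saa2 replaced Saa1, which had no probe set. Other list genes (Il6, Osmr, Bcl6, Il1r1, Apcs, Fgl1, Orm3, Saa3, Crp, Saa4, Steap4, Mt1, Mt2, Serpina6) were named after their values were seen.

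Deviations from the group means correlated between equal replicate numbers at 0.407, 0.208 and 0.201, all above 0.1, so the numbers were treated as pairs in 1 alternative fit. Of the unlike numbers, CR-CD replicate 3 with CD-CD replicate 2 gave 0.261 and CR-CD replicate 2 with CD-CD replicate 3 gave 0.107, and the other 4 were below 0. The labels do not say what a number marks. Promoter windows came from RefSeq (GRCm38.p6). The other alternatives were another normalisation, median centring, a filter on dim genes, probe set averaging, intensity-trended variances, removal of probe sets with longer-format values, and each array left out.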

Additional observations from a re-analysis of the deposited data

How the results depend on the processing

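A reversed sign was scored only for Agt and Hamp, the called genes of the lists, and neither reversed. Their groups do not overlap, so leaving out an array could not turn their sign. The other called genes were only counted by direction. Of 375 results recomputed under an alternative, 351 were scored the same, 23 lost calls and 1 moved. Single genes were scored by their side of the threshold, and untested differences by the replicate spread. Counts were scored the same within a set ratio of the main count, as for 174 higher against 150 under the methods' t-test. Genes never called also count as the same. The results overlap, since calls lost by Hamp recur in the pathway and positive acute phase counts. Untested differences of members may change sign within the spread, as given below. Without the probe sets holding longer-format values, the counts over all genes fell from 174 higher and 155 lower to 0 and 0. Of the 329 called genes, 315 had such values and 35 were still measured by a remaining probe set. The 14 without such values were all still tested and none kept its call. The pathway genes called lower, and the positive acute phase genes called lower, numbered 2 in the limma fit, 1 under the methods' t-test, 0 without longer-format probe sets, 1 under the replicate block and 1 to 2 with each array left out. The replicate block gave 183 higher and 156 lower over all genes and took the call from Hamp (adjusted p = 0.0729). Hamp also lost it under the methods' t-test (0.293), without longer-format probe sets (0.884) and without CD-CD replicate 2 (0.154), CD-CD replicate 3 (0.176), CR-CD replicate 2 (0.0783) or CR-CD replicate 3 (0.161). Hamp itself has no longer-format value, and without those probe sets its difference stayed at -0.76. Its adjusted p of 0.0307 (limma) was obtained with the longer-format genes in the adjustment over all genes. The causes of the lost calls were not tested. Agt kept its call in all 14 alternatives that measured it and has no value without longer-format probe sets. With each array left out, all genes called higher numbered 158 to 180 and lower 132 to 175, the receptor arm difference ran from -0.37 to 0.12, and that of the targets from -0.47 to 0.73. CD-CD replicate 1 was the array without which the receptor arm reached 0.12. The sign of Il6ra and Socs3 held in all 15 alternatives. That of Il6st, Stat3, Saa2 and Hp held in 13, that of Orm2 and Lcn2 in 12 and that of Orm1 in 11. The t-test, the variance settings, the filter and the replicate block leave a member's difference unchanged by construction. Because the groups of Il6ra do not overlap, leaving out an array could not turn its sign, so its count was largely fixed in advance.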

Other observations

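Several other genes with wide ranges over the 6 arrays also split by replicate number more than by diet. The 10 widest ranges belonged to Saa2, Orm2, Pdk4, Etnppl, Upp2, Hamp2, Hsd3b5, Slco1a4, Lcn2 and Serpina6. Pdk4, a kinase that blocks pyruvate oxidation and is induced by fasting, read 11.02, 6.65 and 6.83 in CD-CD and 9.09, 7.01 and 6.79 in CR-CD, highest on both replicate 1 arrays. Etnppl, which breaks down phosphoethanolamine, went the other way, at 6.67, 10.79 and 10.02 in CD-CD and 7.96, 9.37 and 9.47 in CR-CD. The uridine phosphorylase Upp2 was also lowest on the replicate 1 arrays, at 6.41, 10.42 and 10.19 in CD-CD and 8.1, 9.3 and 9.34 in CR-CD. Hamp2, the close copy of hepcidin, read 5.75, 9.26 and 8.54 in CD-CD and 5.45, 8.49 and 9.12 in CR-CD, while Hamp read 12.91 and 12.49 on the same 2 replicate 1 arrays. The organic anion carrier Slco1a4 had the order of Hamp2, at 5.87, 9.44 and 8.82 in CD-CD and 5.69, 8.59 and 8.96 in CR-CD. Hsd3b5, a steroid enzyme of male mouse liver, differed from these, since 4.53 on CD-CD replicate 1 was low but 7.84 on CR-CD replicate 1 was not.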
